A study of Mus musculus with 44 samples.

Results

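The levels of 32 mouse genes for lysosomal enzymes, lysosomal membrane proteins and the transcription factor TFEB were followed through the extraembryonic and embryonic endoderm of two-colour lineage-traced embryos. Members were taken by gene symbol, and each symbol matched 1 gene, so that all 32 of 32 were found among 21531 protein-coding genes off the Y chromosome (32287 gene identifiers in the tables). By role, 10 encode proteases (Ctsa, Ctsb, Ctsc, Ctsd, Ctsh, Ctsl, Ctsz, Ctso, Lgmn and Tpp1) and 8 encode sugar-cleaving and related enzymes (Gla, Glb1, Hexa, Neu1, Man2b1, Gusb, Idua and Sgsh). A further 7 act on lipids (Psap, Gm2a, Ppt1, Lipa, Asah1, Npc1 and Npc2), 6 encode membrane proteins (Lamp1, Lamp2, Scarb2, Cd63, Laptm4a and Mcoln1), and Tfeb encodes the regulator.

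The embryos were made by aggregating an mCherry-labelled morula of CD1/G4 background (from a colony kept by mating to C57BL/6J) with a GFP-labelled embryonic stem cell colony (G4 in the labels, F1G4 in the study's methods, a male line), so that cells of extraembryonic origin carried mCherry and cells of embryonic origin carried GFP. RNA was measured in 44 libraries of 12 groups. At E6.5 these were the epiblast (Epi, GFP) and the distal (exEndo1) and proximal (exEndo2) extraembryonic endoderm (both mCherry), each separated by hand from single embryos (n = 4 per group). At E9.5 they were sorted cells from pools of 4 embryos (n = 4 per group), namely yolk sac endoderm (YsEndo, mCherry), EPCAM+ mCherry+ midgut and hindgut cells (exMidgut and exHindgut) and EPCAM+ GFP+ midgut and hindgut cells with low mCherry (emMidgut and emHindgut). No E9.5 library of GFP+ cells without mCherry was analysed here, so the level of these genes beside the uptake of mCherry remnants could not be compared. At E13.5 they were EPCAM+ cells of single embryos (n = 3 per group), taken from colon and small intestine of lineage-traced embryos whose mCherry+ lineage alone had Trp53 disrupted by Cas9 in the zygote. GFP+ cells (emColon and emSI) are labelled wild type and served as the control of the mCherry+ cells (exColon and exSI), which are labelled Trp53 KO. Midgut and hindgut were cut from the same posterior parts of embryos at E9.5, and intestines were split into colon and small intestine at E13.5, so regions, and the mCherry+ and GFP+ cells sorted from them, can share embryos. The labels do not say which libraries do, the fits treat them as separate, and their p-values do not allow for it. Origin and strain background changed together in every comparison of mCherry+ with GFP+ cells and cannot be told apart, nor can origin and loss of p53 at E13.5, or stage and way of collection between E6.5 and later stages. Between E9.5 and E13.5, pooling changed with the stage. In embryonic gut so did the sort gate, from GFP+ cells with low mCherry to GFP+ cells. Neither can be told apart from stage. Sex can differ in these comparisons as well. The study states that GFP+ cells are male, whereas mCherry+ cells may be of either sex. Of the members, Gla and Lamp2 lie on the X chromosome, and the part of sex was not tested. All groups went through aggregation, transfer to CD1 females and the same low-input protocol, and all but the exColon and exSI groups are labelled wild type.

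The reporters followed the labels: mCherry lay between 1731 and 8667 TPM in mCherry+ libraries against at most 6.61 TPM in GFP+ libraries, and EGFP lay between 180 and 880 TPM in GFP+ libraries against at most 15.9 TPM, in an exEndo1 library, elsewhere. Transcripts of Trp53 were still present in the exColon and exSI libraries (33.4 to 167 TPM against 151 to 245 TPM in emColon and emSI), and their sequence was not examined. The summed level of 8 visceral and yolk sac endoderm markers (Afp, Ttr, Apoa1, Apob, Rbp4, Amn, Cubn and Trf) lay between 4837 and 72255 TPM in exEndo1, exEndo2 and YsEndo and between 3.37 and 6.09 TPM in Epi. The tables hold TPM, a length-scaled transcript abundance with the same total in every library, and no read counts, so the sequencing depth is unknown, and between 10382 and 13596 genes exceeded 1 TPM in a library. The median deposited coverage per base over the 32 genes lay between 40.2 and 51.3 in Epi libraries and between 173 and 268 in YsEndo libraries. Of the 1408 values of the 32 genes, 46 were under 1 TPM and 12 were listed at 0.

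Lysosomes are acidic compartments in which proteins, sugars and lipids delivered by endocytosis, autophagy and phagocytosis are broken down. Their soluble hydrolases are made in the secretory pathway and most are sorted by a mannose-6-phosphate tag, the lumen is acidified by the V-ATPase proton pump, and heavily glycosylated proteins such as LAMP1 and LAMP2 line the membrane. TFEB, a basic helix-loop-helix factor, is known to switch on many of these genes through promoter elements built on the letters CACGTG. The visceral endoderm, which surrounds the epiblast, and its later form in the yolk sac are known for strong endocytosis and large apical lysosomes, with which they digest maternal proteins for the embryo.

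Promoter sequences were available for 28 of the 32 genes (RefSeq, GRCm38.p6, 250 bases before to 50 bases after each start), and 4 of the 28 had more than 1 start. The letters CACGTG, which read the same on both strands, occurred in 9 of the 28 genes (32.1%; Ctsa, Ctsd, Ctsl, Gla, Glb1, Lamp1, Lgmn, Mcoln1 and Sgsh) and in 8.09% of all 27025 genes with a promoter of this length. The longer TCACGTGA, which also reads the same on both strands and holds CACGTG within it, occurred in 4 of the 28 (14.3%; Ctsa, Ctsd, Gla and Mcoln1) and in 1.12% of all genes. The 250 bases before the RefSeq start are shown for 6 of them because they hold these letters. Their genes range from some of the largest differences described below (Lgmn and Ctsl) to a gene that was not called at E6.5 (Gla). Capitals mark CACGTG, or TCACGTGA where the longer form is present.
Lamp1: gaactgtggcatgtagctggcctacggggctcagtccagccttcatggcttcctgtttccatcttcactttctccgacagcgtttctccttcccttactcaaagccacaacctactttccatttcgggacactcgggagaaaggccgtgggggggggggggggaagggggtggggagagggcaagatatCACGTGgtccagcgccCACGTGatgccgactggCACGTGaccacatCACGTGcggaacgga
Mcoln1: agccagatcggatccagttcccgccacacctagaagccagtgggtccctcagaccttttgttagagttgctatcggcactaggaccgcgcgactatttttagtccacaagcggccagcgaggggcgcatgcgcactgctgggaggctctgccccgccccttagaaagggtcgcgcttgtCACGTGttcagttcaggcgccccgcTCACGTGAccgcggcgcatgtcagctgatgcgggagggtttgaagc
Lgmn: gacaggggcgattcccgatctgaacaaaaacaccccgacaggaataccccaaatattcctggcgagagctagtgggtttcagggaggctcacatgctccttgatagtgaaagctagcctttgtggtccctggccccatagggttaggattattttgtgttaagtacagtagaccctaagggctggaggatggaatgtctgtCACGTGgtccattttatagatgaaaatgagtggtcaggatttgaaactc
Ctsl: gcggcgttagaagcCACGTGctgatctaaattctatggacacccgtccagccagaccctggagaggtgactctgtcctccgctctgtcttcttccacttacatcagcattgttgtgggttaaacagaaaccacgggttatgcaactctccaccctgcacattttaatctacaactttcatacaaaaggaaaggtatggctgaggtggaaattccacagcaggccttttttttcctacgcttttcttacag
Ctsd: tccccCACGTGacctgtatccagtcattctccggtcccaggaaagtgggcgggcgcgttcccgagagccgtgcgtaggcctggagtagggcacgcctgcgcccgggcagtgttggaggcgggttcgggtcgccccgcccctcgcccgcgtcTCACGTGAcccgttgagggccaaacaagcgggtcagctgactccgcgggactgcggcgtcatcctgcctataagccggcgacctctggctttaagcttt
Gla: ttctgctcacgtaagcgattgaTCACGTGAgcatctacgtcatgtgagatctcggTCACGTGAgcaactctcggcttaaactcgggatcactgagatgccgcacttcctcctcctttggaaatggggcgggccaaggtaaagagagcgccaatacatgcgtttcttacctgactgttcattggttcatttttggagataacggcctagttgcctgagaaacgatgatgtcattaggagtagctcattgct
The Lamp1 stretch (chr8:13158911-13159160, plus strand) holds 4 copies of CACGTG, whose first bases lie 61, 45, 28 and 15 bases before the start. Mcoln1 (chr8:3500269-3500518, plus strand) has copies 71 and 45 bases before the start, and Lgmn (chr12:102439093-102439342, minus strand, the one of its starts that has the letters) a copy 49 bases before it. The copies lie farther out in Ctsl (chr13:64370521-64370770, minus strand), at 236 bases, in Ctsd (chr7:142387828-142388077, minus strand), at 245 and 98 bases, and in Gla (chrX:134601006-134601255, minus strand), at 227 and 194 bases. The starts are those of RefSeq. By the spans of the quantified genes, the whole Ctsl and Lgmn stretches lie inside the gene. On the minus strand these genes begin at 64370890 and 102439813. The Mcoln1, Ctsd and Gla stretches overlap their genes in part, and the Lamp1 stretch ends just before its gene. The other Lgmn window, which spans the beginning of the gene, holds no CACGTG. A match is a description of these letters only. No binding was measured.

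Summed over the 32 genes, the level was lowest in the epiblast and highest in the yolk sac endoderm. The Epi libraries summed to between 1100.5 and 1171 TPM, the exEndo1 libraries to between 9417 and 11344 TPM, the exEndo2 libraries to between 9115 and 11953 TPM and the YsEndo libraries to between 13773 and 15297 TPM. None of the gut libraries came near these extraembryonic tissues: they summed to between 3901 and 4388 TPM in emMidgut, 2543 and 2774 TPM in emHindgut, 4494 and 5724 TPM in exMidgut, and 2911 and 3055 TPM in exHindgut. At E13.5 the sums were 3013 ± 520 TPM in emColon, 2706 ± 23.3 TPM in emSI, 3700 ± 308 TPM in exColon and 4013 ± 313 TPM in exSI (mean ± SD, n = 3). Every gut library lay above every Epi library and below every exEndo1, exEndo2 and YsEndo library.

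**Figure D1:**
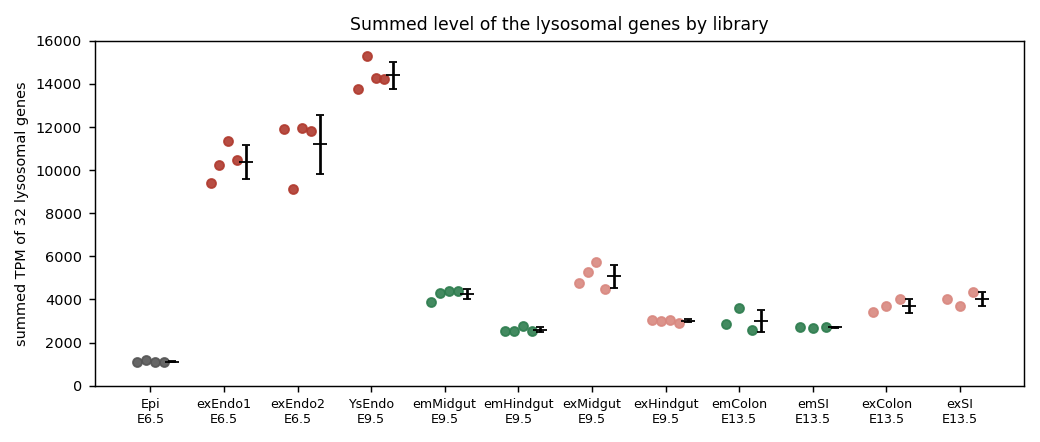
Summed TPM of the 32 genes (vertical axis, linear, from 0) in each of the 44 libraries, by group, with the group mean and SD. The Epi libraries lie between 1100.5 and 1171 TPM, the exEndo1, exEndo2 and YsEndo libraries between 9115 and 15297 TPM, and the gut libraries between.

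The make-up of that sum differed as well. Proteases gave 71.6% of it in exEndo1, 66.8% in exEndo2 and 68.3% in YsEndo, but 35.4% in Epi and 30.5% to 41.4% in the gut groups. Ctsl, the cysteine protease cathepsin L, alone gave 33.0% in exEndo1, 30.4% in exEndo2 and 23.6% in YsEndo, where it ranked between the 14th and the 40th most abundant gene of a library, against a rank between 958 and 1337 in Epi. In the gut the leading genes by mean level were Ctsl, Laptm4a (a membrane protein), Cd63 (a tetraspanin of late endosomes) and Psap (the precursor of the saposins, which help degrade sphingolipids). By group means, 15 of the 32 genes were highest in YsEndo, 24 were lowest in Epi, and 25 exceeded 1 TPM in every library.

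**Figure D2:**
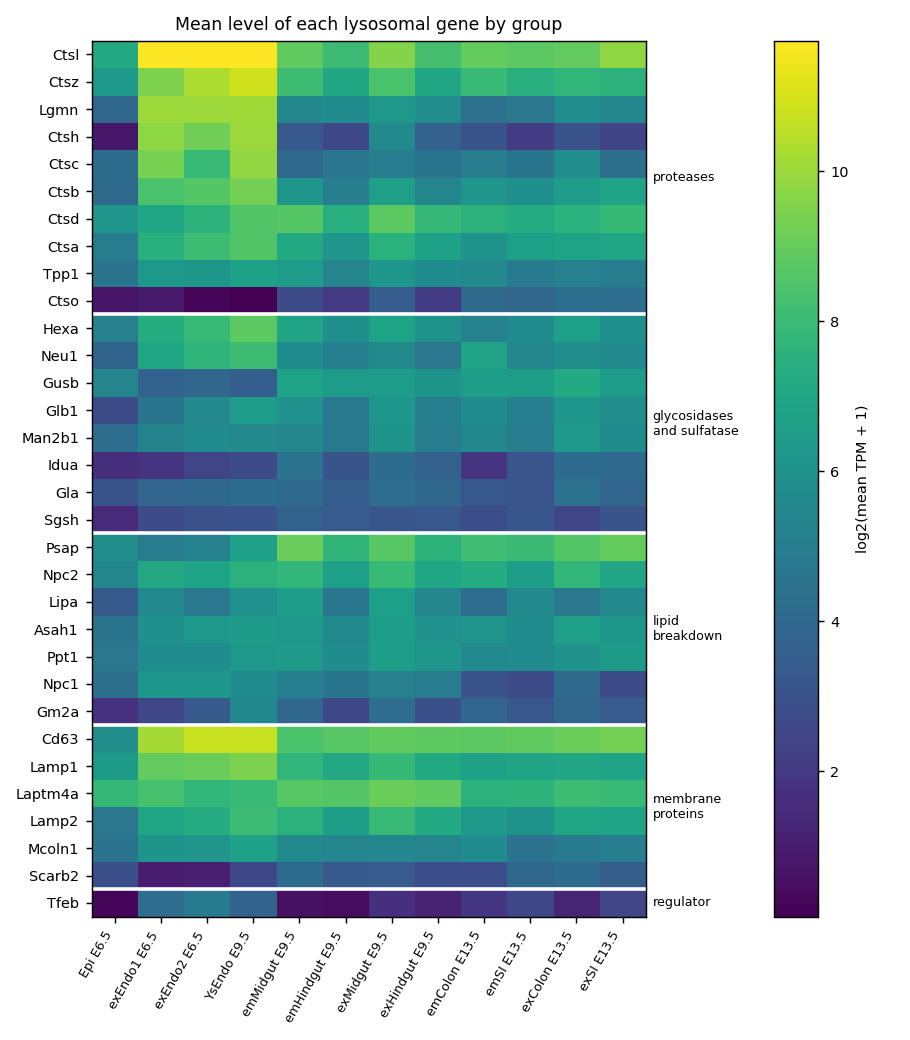
Heat map of log2(mean TPM + 1) for each of the 32 genes (rows, by role) in each of the 12 groups (columns). Epi holds the lowest mean of 24 genes and YsEndo the highest mean of 15, while Gusb, Ctso, Psap and Scarb2 have their lowest means in extraembryonic tissues.

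The first comparison asked how the extraembryonic endoderm at E6.5 differs from the epiblast beside it. Most lysosomal genes were far higher in the endoderm: of 31 tested in exEndo1 (Ctso did not pass the filter on low values), 23 were called higher and 2 lower, where 19.8% and 13.6% of all genes were called. A gene was called when limma gave an adjusted p under 0.05 and a log2 fold change beyond 1 on the log2(TPM + 1) scale. In exEndo2, 25 of 31 were called higher and 2 lower, with 20.4% and 15.4% of all genes called. The median log2 fold change of the tested members was 1.83 in exEndo1 and 1.75 in exEndo2, against 0.09 and 0.05 over all genes. The values of exEndo1 and exEndo2 did not overlap those of Epi for 29 and 28 of the 31 genes. This was counted for the members only. Without the share over all genes, the counts cannot be read as particular to the members. An unadjusted p under 0.05 was found for 30 and 29 of the 31 members. Over all genes it was found for 8040 of 12057 and 8258 of 12046. Both comparisons share the Epi libraries.

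Proteases led this difference. Ctsh, the aminopeptidase cathepsin H, was listed at 0.33, 0.602, 0.64 and 1.35 TPM in Epi, against 856, 941, 885 and 787 TPM in exEndo1 and 688, 427, 601 and 635 TPM in exEndo2. Its log2 fold change was 9.0 ± 0.17 in exEndo1 (SE, adjusted p = 1.92e-11) and 8.42 ± 0.20 in exEndo2 (adjusted p = 3.47e-11). Lgmn, the asparaginyl endopeptidase legumain, which also cuts cathepsins into their mature two-chain forms, lay between 10.5 and 16.4 TPM in Epi and at 885, 1142, 1228 and 893 TPM in exEndo1 and 1063, 794, 1229 and 1095 TPM in exEndo2. Its log2 fold changes were 6.08 ± 0.17 and 6.09 ± 0.17. Ctsl rose from between 116 and 163 TPM in Epi to between 3018 and 3695 TPM in exEndo1 (log2 fold change 4.56 ± 0.13) and between 2414 and 3999 TPM in exEndo2 (4.53 ± 0.16). Ctsc, the dipeptidyl peptidase cathepsin C that activates serine proteases of immune cells, rose by 5.16 ± 0.15 and 3.69 ± 0.16, and Ctsb, another cysteine protease, by 4.21 ± 0.27 and 4.58 ± 0.17 on the log2 scale. Ctsz, a carboxypeptidase, lay between 43.8 and 95.2 TPM in Epi and at 357, 824, 848 and 860 TPM in exEndo1, where replicate 1 lay far below the others. In exEndo2 it lay between 998 and 1490 TPM. Ctsd, the aspartic protease, was called in exEndo2 (1.47 ± 0.23) and not in exEndo1 (0.82 ± 0.24, adjusted p = 0.0108, overlapping values).

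Among enzymes that act on sugars, 5 of 8 were called higher in each endoderm (Glb1, Hexa, Man2b1, Neu1 and Sgsh). In exEndo1 the call of Man2b1 was lost without Epi replicate 1 or 4 or exEndo1 replicate 3 or 4. It was also lost with FPKM and under median-ratio and quantile scaling, and that of Sgsh was lost with FPKM. Neu1, a sialidase, showed the largest change, from between 11.2 and 14.3 TPM in Epi to between 82.1 and 154 TPM in exEndo1 (3.13 ± 0.20) and between 196 and 221 TPM in exEndo2 (3.85 ± 0.12). Gusb, the β-glucuronidase, went the other way. It lay between 31.3 and 45 TPM in Epi, between 9.76 and 14.6 TPM in exEndo1 and between 10 and 17 TPM in exEndo2, without overlap, and fell by 1.61 ± 0.17 (adjusted p = 1e-05) and by 1.44 ± 0.18 (adjusted p = 2.79e-05). Gla, the α-galactosidase, missed the fold threshold with 0.74 ± 0.18 (adjusted p = 0.00418) and 0.80 ± 0.21 (adjusted p = 0.00527), and Idua, the α-L-iduronidase of glycosaminoglycan breakdown, was not called in either.

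Of the 7 genes that handle lipids, 5 were called higher in exEndo1 and 6 in exEndo2. Npc1 and Npc2, which pass cholesterol out of the lysosome from membrane and lumen, were both among them, with log2 fold changes of 1.84 ± 0.12 and 1.64 ± 0.14 in exEndo1 and 1.83 ± 0.12 and 1.36 ± 0.17 in exEndo2. Lipa, the acid lipase, rose by 2.23 ± 0.14 and 1.33 ± 0.18. The call of Ppt1 was lost in both endoderm samples with FPKM and under median-ratio and quantile scaling. In exEndo2 it was also lost without Epi replicate 1 or exEndo2 replicate 2. Psap was the exception, with lower values in endoderm that did not pass the fold threshold: 20.7 to 40.2 TPM in exEndo1 (-0.89 ± 0.21, adjusted p = 0.00357) and 25.4 to 45.4 TPM in exEndo2 (-0.68 ± 0.20, adjusted p = 0.0102) against 42.3 to 66.7 TPM in Epi. Gm2a, the GM2 activator, was called in exEndo2 (1.66 ± 0.21) and not in exEndo1 (0.88 ± 0.22, adjusted p = 0.00428).

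The membrane protein genes Cd63, Lamp1, Lamp2 and Mcoln1, which encodes a calcium channel, were called higher in both endoderm samples. Cd63 rose from between 46.6 and 68.5 TPM to 880, 1149.6, 1302 and 1212 TPM in exEndo1 and to between 1644 and 1842 TPM in exEndo2 (log2 fold changes 4.33 ± 0.15 and 4.96 ± 0.13). Scarb2, the receptor that carries β-glucocerebrosidase to the lysosome, was called lower. It lay between 6.29 and 7.31 TPM in Epi, between 0.622 and 1.19 TPM in exEndo1 and between 0.769 and 1.53 TPM in exEndo2, and fell by 2.00 ± 0.16 and by 1.87 ± 0.16 on the log2 scale. Tfeb itself was close to absent in Epi, where it was listed at no more than 0.201 TPM, and lay at 11.1, 15.0, 23.2 and 21.9 TPM in exEndo1 and at 24.7, 27.2, 32.5 and 34.4 TPM in exEndo2. Its log2 fold changes were 3.98 ± 0.22 and 4.73 ± 0.16. Tfeb passed the filter on low values only through the endoderm libraries, where it was high. Its calls, which are part of the counts above, describe these levels and are no separate support.

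**Figure D3:**
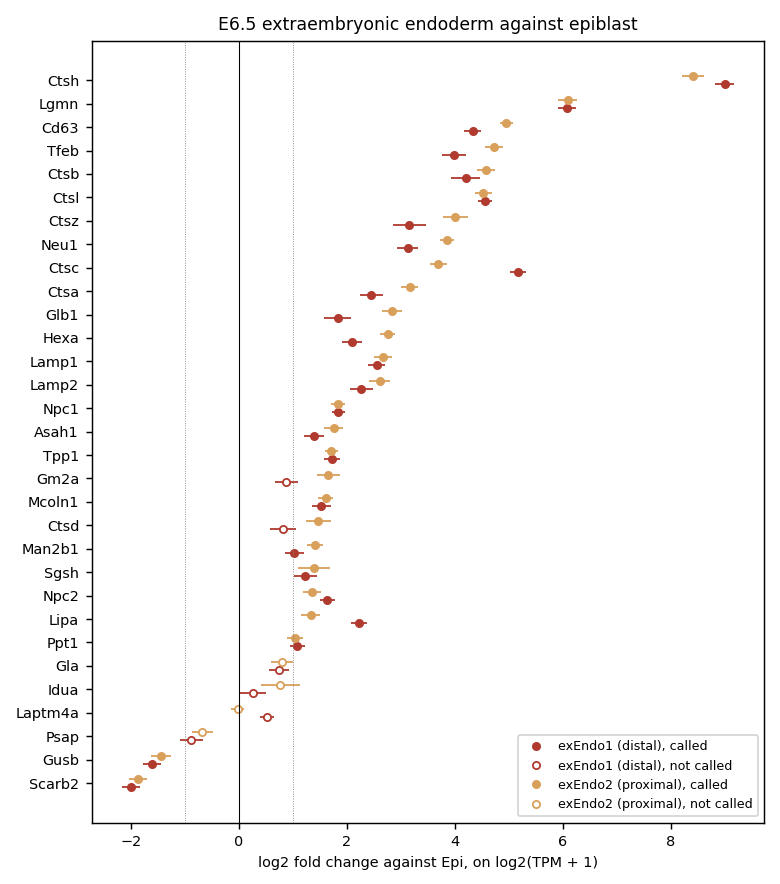
Log2 fold change against Epi on the log2(TPM + 1) scale (horizontal axis) for each tested gene (vertical axis), in exEndo1 and exEndo2; bars are standard errors, dotted lines mark -1 and 1, filled points are called genes and open points are not. Ctsh and Lgmn lie farthest to the right in both, and only Gusb and Scarb2 are called lower in both.

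Of the 9 genes with CACGTG in the promoter window, 7 were called higher in exEndo1 and 8 in exEndo2. Of the 18 tested genes whose window lacked it, 12 and 13 were called higher and 2 lower in each. The 6 stretches printed above include Lgmn, Ctsl, Lamp1 and Mcoln1, called higher in both endoderm samples, Ctsd, called higher in exEndo2, and Gla, called in neither, so the letters were present beside differences of very unequal size.

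The other lists read as follows beside the 19.8% higher and 13.6% lower over all genes in exEndo1 and the 20.4% and 15.4% in exEndo2. Of 21 other lysosomal hydrolases tested, 14 were called higher in exEndo1 and 15 in exEndo2, and none lower, including Manba, the β-mannosidase (3.29 ± 0.21 and 3.53 ± 0.19), and Scpep1, a serine carboxypeptidase (3.03 ± 0.24 and 3.70 ± 0.18). Of 16 V-ATPase subunits, 12 were called higher in each, led by Atp6v0a1 (2.83 ± 0.17 and 3.49 ± 0.17). Of 13 genes for the sorting of lysosomal enzymes, 8 and 7 were called higher, among them Igf2r, the mannose-6-phosphate receptor, while Sort1, another sorting receptor, was the 1 called lower in each. Among 14 genes of the TFEB family and its regulators, 4 and 5 were called higher and 2 and 1 lower. Tfec, a relative of TFEB, lay at a mean of 87.0 TPM in exEndo1 and 38.2 TPM in exEndo2 against 0.0449 TPM in Epi, whereas Rragd, a RAG GTPase through which amino acids act on mTORC1 and TFEB, lay at 7.24 and 0.44 TPM against 71.1 TPM. Of 14 autophagy genes, 2 and 3 were called higher and 0 lower, a share near that of all genes. All 4 endocytic receptor genes of visceral endoderm (Amn, Cubn, Dab2 and Lrp2) were called higher in each, with log2 fold changes up to 9.07 ± 0.21 for Amn in exEndo1 and 9.42 ± 0.17 in exEndo2. Of 14 genes for the uptake of dying cells 8 and 5 were called higher and 0 and 1 lower, and of 3 cathepsin inhibitors 3 and 2 were called higher, including Cst3, cystatin C (2.12 ± 0.16 and 2.53 ± 0.17).

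Epiblast markers (Pou5f1, Utf1, Sox2, Fgf5 and Nanog) summed to between 48.5 and 214 TPM in exEndo1 and between 5.23 and 35 TPM in exEndo2, against 1412 to 2542 TPM in Epi (their part in the results was not tested). The summed level of 9 macrophage markers, a cell type rich in lysosomes, was at most 27.8 TPM in any of the 44 libraries. In these bulk samples a lower share of a cell type and less RNA per cell cannot be told apart.

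The distal and proximal endoderm differed in few members when compared with each other. Of 31 tested, 1 was called higher and 1 lower in exEndo1 than in exEndo2, where 3.96% and 2.45% of all genes were called, and the median was -0.17 against 0.02 over all genes. Ctsc was the higher one, at 839, 666, 603 and 557 TPM in exEndo1 against 291, 178, 265 and 230 TPM in exEndo2, without overlap (1.47 ± 0.17, adjusted p = 0.000224). Glb1, the β-galactosidase, was the lower one, at 14, 20.5, 32.7 and 27 TPM against 36, 48.5, 55.1 and 47.4 TPM (-1.01 ± 0.23, adjusted p = 0.0149), and its call was lost without exEndo1 replicate 1 or 2 or exEndo2 replicate 2, 3 or 4. Smaller differences passed the adjusted p but not the fold threshold for 10 further genes, among them Lipa (0.90 ± 0.15, adjusted p = 0.00258) and Laptm4a (0.54 ± 0.10, adjusted p = 0.00528), higher in exEndo1, and Cd63 (-0.62 ± 0.12, adjusted p = 0.00606), lower in it. In the other lists, Tfec (1.14 ± 0.23) and Rragd (2.48 ± 0.26) were called higher in exEndo1 and Lrp2, the megalin receptor, lower (-1.46 ± 0.22).

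From E6.5 proximal endoderm to E9.5 yolk sac endoderm few of these genes fell. Of 31 members tested, 5 were called higher in YsEndo and 1 lower, where 7.95% and 21.6% of all genes were called. The median was 0.50 for the members and -0.41 over all genes, so all genes together were shifted between these tissues. With libraries rescaled to the same median ratio, 15 members were called higher and 0 lower, with a median of 0.96 against 0.01 over all genes, of which 13.4% were then called higher and 10.1% lower. The 5 called higher were Gm2a (36.2 to 49.8 TPM against 8.28 to 9.48 TPM, log2 fold change 2.17 ± 0.14), Ctsc (824 to 1020.0 TPM against 178 to 291 TPM, 1.93 ± 0.14), Scarb2 (1.501 ± 0.24), Psap (1.495 ± 0.17) and Lipa (1.26 ± 0.16). Tfeb was the 1 called lower, at 9.39 to 16.1 TPM against 24.7 to 34.4 TPM (-1.17 ± 0.18, adjusted p = 0.000102). Its call was lost under the rescaling (-0.73 ± 0.19), since the log2 fold change no longer passed 1. Ctsl, at 3417, 3852, 3064 and 3268 TPM in YsEndo, was not called in either direction, nor were Lgmn and Ctsb. Among the other lists, 4 of 21 hydrolases were called higher, led by Smpd1, the acid sphingomyelinase (1.87 ± 0.15), and Tfec was called lower (-1.41 ± 0.22).

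Gut cells at E9.5 stood far below the yolk sac endoderm of the same stage. In exGut, the 8 exMidgut and exHindgut libraries that share the extraembryonic origin of YsEndo, 14 of 32 members were called lower and 5 higher, where 10.0% and 32.3% of all genes were called. In emGut 15 were called lower and 4 higher, with 10.9% and 35.7% of all genes called. Both comparisons share the YsEndo libraries. The median was -0.74 in exGut and -0.92 in emGut against 0.59 and 0.64 over all genes, and under median-ratio rescaling the counts were 18 lower and 2 higher in exGut, with 17.8% and 21.1% of all genes called, and 21 lower and 3 higher in emGut, with 18.6% and 23.4% called. Values did not overlap those of YsEndo for 20 members in exGut and 21 in emGut. This was counted for the members only, so it cannot be read as particular to them. An unadjusted p under 0.05 was found for 23 and 25 of the 32 members. Over all genes it was found for 8508 of 12801 and 9218 of 13029.

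Proteases fell the most. Ctsh lay at 958, 1074, 1113 and 950 TPM in YsEndo, at 38.0, 63.4, 56.7 and 35.1 TPM in exMidgut and at 17.03, 5.31, 11.2 and 15.2 TPM in exHindgut (exGut against YsEndo -5.40 ± 0.51, adjusted p = 5.66e-07). In emMidgut and emHindgut it lay between 2.46 and 13.505 TPM (emGut against YsEndo -7.15 ± 0.29, adjusted p = 6.76e-11). Ctsc fell by 5.14 ± 0.28 in exGut and by 5.58 ± 0.35 in emGut, and Lgmn, between 1008 and 1194 TPM in YsEndo and between 27 and 108 TPM in the E9.5 gut, fell by 4.11 ± 0.24 and by 4.54 ± 0.21. Ctsl fell by 2.81 ± 0.32 in exGut and by 3.24 ± 0.21 in emGut. The 7 proteases called lower in exGut (Ctsa, Ctsb, Ctsc, Ctsh, Ctsl, Ctsz and Lgmn) were also the 7 called lower in emGut. Tfeb fell with them, to at most 4.29 TPM in any E9.5 gut library (-2.65 ± 0.49 in exGut and -3.33 ± 0.30 in emGut), as did Neu1 (-2.94 ± 0.26 and -2.72 ± 0.24), Hexa (-2.38 ± 0.23 and -2.40 ± 0.26), Cd63 (-1.92 ± 0.10 and -2.20 ± 0.11) and Lamp1 (-1.90 ± 0.18 and -2.02 ± 0.18).

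A smaller set was higher in the gut. Gusb lay between 8.58 and 13.2 TPM in YsEndo and between 59.3 and 133 TPM in the E9.5 gut libraries, without overlap (2.75 ± 0.16 in exGut and 3.12 ± 0.16 in emGut). Psap lay between 86.8 and 118 TPM in YsEndo and between 168 and 623 TPM in the gut (1.503 ± 0.28 and 1.73 ± 0.34), and Ctso, a little-studied cysteine protease, was listed at 0 in 3 YsEndo libraries and at 0.171 TPM in the other, against a mean of 6.56 TPM in exGut and 4.46 TPM in emGut (adjusted p = 0.000986 and 0.000332). Ctso passed the filter on low values only through the gut libraries, where it was high. Its calls describe these levels and are no separate support. Idua (1.23 ± 0.31) and Laptm4a (1.04 ± 0.10) were called higher in exGut, and Scarb2 (1.15 ± 0.28) in emGut. In exGut, the calls of Psap, Laptm4a and Idua were lost under median-ratio rescaling, which left Gusb and Ctso, and that of Idua also without YsEndo replicate 1. In emGut, the call of Scarb2 was lost with FPKM and under both rescalings, with a log2 fold change down to 0.29.

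**Figure D4:**
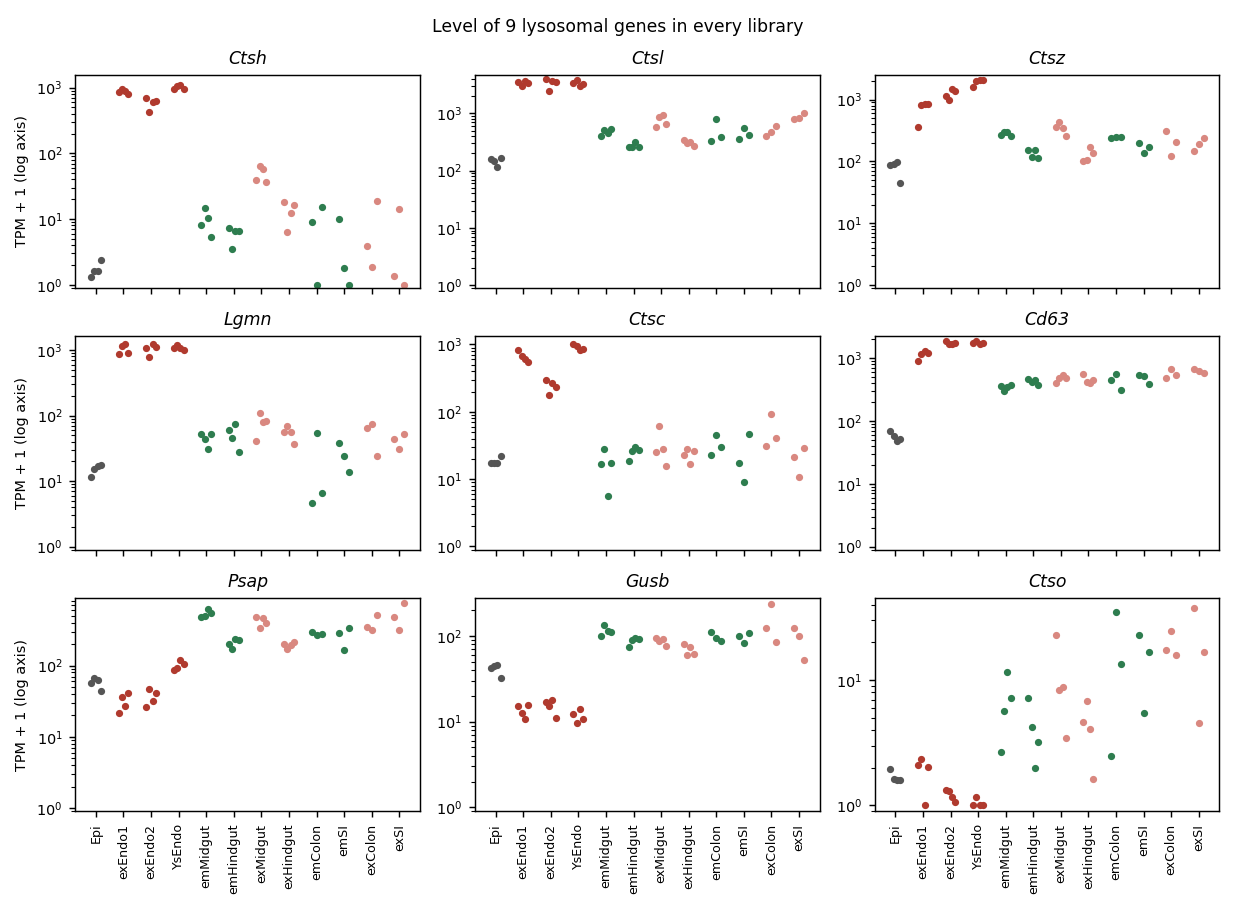
TPM + 1 on a log axis for 9 of the 32 genes in each of the 44 libraries, by group; points are libraries (1 embryo each at E6.5 and E13.5, a pool of 4 at E9.5). Ctsh, Lgmn and Ctsc stand high in exEndo1, exEndo2 and YsEndo and low in Epi and gut, while Gusb stands lowest in these extraembryonic tissues.

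Over all genes, 1285 of 12801 were called lower and 4138 higher in exGut than in YsEndo, and the other lists stand beside these shares. Of 17 V-ATPase subunits, 12 were called lower and 0 higher (Atp6v0b -2.43 ± 0.13). Of 22 other hydrolases 9 were called lower and 5 higher, and of 13 genes of the TFEB family and its regulators 7 lower and 2 higher. Of 16 genes for uptake of dying cells, 7 were called higher and 2 lower, shares not far from those of all genes. Axl, a receptor for phosphatidylserine bridged by Gas6, lay at 12.02 TPM in exGut against 0.0268 TPM in YsEndo, and its ligand gene Gas6 at 19.2 against 1.3 TPM. The 4 endocytic receptor genes of visceral endoderm were all called lower in exGut, by up to 7.13 ± 1.07 on the log2 scale for Cubn. The visceral and yolk sac endoderm markers moved with these members: their sum was 62356 to 72255 TPM in YsEndo, 7245 to 17248 TPM in exMidgut and 126 to 711 TPM in exHindgut, and their part in the result was not tested. With exHindgut alone against YsEndo, an alternative chosen after seeing the data, 16 of 31 members were called lower and 1 (Gusb) higher, with 12.5% and 33.9% of all genes called.

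Set against the distal E6.5 endoderm of the same origin, exGut was lower in a larger share of the lysosomal genes than of all genes. The share that was higher lay closer to that of all genes. Of 32 members, 11 (34.4%) were called lower and 8 (25%) higher in exGut than in exEndo1, where 11.5% and 18.8% of all genes were called. The median of 0.23 lay near the 0.13 over all genes. The lower ones were led by Ctsh (-5.16 ± 0.51), Ctsc (-4.68 ± 0.28), Lgmn (-4.04 ± 0.25), Tfeb (-3.06 ± 0.50) and Ctsl (-2.82 ± 0.31). The higher ones were led by Psap, from between 20.7 and 40.2 TPM in exEndo1 to between 168 and 477 TPM in exGut (3.21 ± 0.30), Gusb (2.54 ± 0.17), Idua (2.09 ± 0.28) and Scarb2, from 0.622 to 1.19 TPM to 3.12 to 15.2 TPM (2.08 ± 0.36). Gm2a (1.03 ± 0.37, adjusted p = 0.0342) and Glb1 (1.05 ± 0.33, adjusted p = 0.0168) were close to the fold threshold. The call of Gm2a was lost when any 1 exEndo1 or exMidgut library was left out. It was also lost with FPKM, without the filter and under median-ratio and quantile scaling. The call of Glb1 was lost under both scalings and without exEndo1 replicate 1 or exMidgut replicate 1 or 3. Under quantile normalization 11 were called lower and 5 higher, with 15.2% and 14.8% of all genes called. With exHindgut alone 12 were called lower and 4 higher (Gusb, Idua, Psap and Scarb2), with 13.2% and 19.6% of all genes called.

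Embryonic gut cells, compared with the epiblast from which they arise, had higher levels of nearly the whole set. Of 31 members tested (Tfeb did not pass the filter), 24 were called higher and 0 lower, where 22.4% and 7.31% of all genes were called, and all 31 fold changes were positive, with a median of 1.48 against 0.30 over all genes. Psap lay between 42.3 and 66.7 TPM in Epi, between 476 and 623 TPM in emMidgut and between 172 and 233 TPM in emHindgut (2.55 ± 0.34). The largest change was in Cd63 (2.76 ± 0.13, from between 46.6 and 68.5 to between 297 and 460 TPM), followed by Psap, Glb1 (2.54 ± 0.38), Lamp2 (2.42 ± 0.27), Lipa (2.20 ± 0.49), Idua (2.17 ± 0.45), Ctsh (2.09 ± 0.34) and Sgsh (2.04 ± 0.28), a heparan sulfamidase. Gusb, lower than the epiblast in both E6.5 endoderm samples, was higher here (1.29 ± 0.15). Its call was lost under median-ratio rescaling, as were those of Ctsl, Hexa and Lamp1. Under quantile normalization the calls of Ctso, Gm2a, Hexa and Lamp1 were lost. That of Lamp1 was also lost with FPKM and without some single libraries. Ctsc did not change beyond its spread (0.05 ± 0.36, adjusted p = 0.923). The gene with the highest mean was Psap in emMidgut and Cd63 in emHindgut, where proteases gave 36.0% and 30.5% of the sum. Among the lists, 17 of 22 other hydrolases and 8 of 14 autophagy genes were called higher and 0 lower, the latter led by Wipi1 (2.69 ± 0.36), but only 3 of 17 V-ATPase subunits were. Mfge8, a bridging protein for the uptake of dying cells, rose from a mean of 6.14 TPM in Epi to 170 TPM in emGut (4.55 ± 0.24), and with it 6 of 15 genes of its list were called higher and 0 lower.

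The comparison at the centre of the study, extraembryonic against embryonic gut cells at E9.5, gave few calls in these genes. Of 32 members, 1 was called higher in exGut and 0 lower, where 1.08% and 1.27% of all genes were called. An unadjusted p under 0.05 was found for 6 of the 32 members and for 2225 of the 13473 genes tested. No member had values that separated the 8 exGut from the 8 emGut libraries. The 1 called was Ctsh, with a mean of 30.2 TPM in exGut and 6.81 TPM in emGut (1.75 ± 0.43, adjusted p = 0.0261). Within the midgut it lay at 38.0, 63.4, 56.7 and 35.1 TPM in exMidgut against 7.24, 13.505, 9.39 and 4.3 TPM in emMidgut, with no overlap. In the hindgut the values were 17.03, 5.31, 11.2 and 15.2 TPM in exHindgut and 6.24, 2.46, 5.64 and 5.68 TPM in emHindgut, which overlapped. Analysed alone, the midgut libraries gave Ctsh as the 1 called member (2.41 ± 0.33, adjusted p = 0.000691, with 1.23% of all genes called higher and 1.35% lower), and the hindgut libraries gave 0 (Ctsh 1.08 ± 0.39, adjusted p = 0.135, with 1.37% and 1.70% of all genes called). The call was lost with the replicate number as a block (adjusted p = 0.0598) and without emHindgut replicate 2 or any of the 4 exMidgut libraries.

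The summed visceral and yolk sac endoderm markers were higher on the extraembryonic side in the same samples as Ctsh, at 7245 to 17248 TPM in exMidgut against 1521 to 3263 TPM in emMidgut, and at 126 to 711 TPM in exHindgut against 40.2 to 123 TPM in emHindgut, and their part in the result was not tested. Several of these markers were also abundant in embryonic cells. In emColon at E13.5, Rbp4, Apoa1, Afp, Trf and Ttr had means of 2120, 782, 548, 445 and 278 TPM. Apob, Cubn and Amn lay at 18.4, 9.02 and 8.06 TPM there. Laptm4a passed the adjusted p with a small difference (515 against 401 TPM, 0.36 ± 0.08, adjusted p = 0.0102). Gusb (-0.37 ± 0.13, adjusted p = 0.14) and Cd63 (0.28 ± 0.10, adjusted p = 0.146) did not pass. With region as a covariate, Ctsh was again the 1 member called (adjusted p = 0.000408, with 1.94% of all genes called higher and 2.42% lower), while the adjusted p was 0.000761 for Laptm4a, 0.02 for Gusb and 0.052 for Cd63, all 3 below the fold threshold. In all, 26 of the 32 differences were positive, with a median of 0.29 against -0.03 over all genes, and in the fit without that covariate only Ctsh and Laptm4a passed the adjusted p. None of the genes in the other lists was called, including all 22 other hydrolases, 17 V-ATPase subunits, 14 autophagy genes and 15 genes for uptake of dying cells that were tested. Whether origin acted differently in midgut and hindgut was tested as an interaction. It called 0 of the 32 members, where 0.0445% of all genes were called positive and 0.0520% negative. An unadjusted p under 0.05 was found for 5 of the 32 members and for 1052 of the 13473 genes tested. For Ctsh the interaction was -1.33 ± 0.53 (adjusted p = 0.509).

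Hindgut cells had lower levels than midgut cells in many of these genes. Of 32 members, 10 were called lower in hindgut than in midgut and 0 higher, where 8.63% and 5.54% of all genes were called, and 30 of 32 differences were negative, with a median of -0.82 against -0.01 over all genes. Lipa lay at 88.7 to 106 TPM in emMidgut and 59.1 to 139 TPM in exMidgut, against 16.1 to 38.6 TPM in emHindgut and 28.0 to 57.6 TPM in exHindgut, so the midgut libraries lay above all hindgut libraries (-1.58 ± 0.21, adjusted p = 3.15e-06). Psap lay between 335 and 623 TPM in the midgut and between 168 and 233 TPM in the hindgut (-1.23 ± 0.09, adjusted p = 1.2e-09). The remaining 8 were Gm2a (-1.38 ± 0.19), Ctsh (-1.30 ± 0.30), Ctsz (-1.27 ± 0.12), Ctsb (-1.21 ± 0.12), Ctsd (-1.11 ± 0.10), Npc2 (-1.08 ± 0.08), Glb1 (-1.08 ± 0.21) and Ctsl (-1.04 ± 0.11). The calls of Ctsl and Glb1 lay close to the fold threshold, that of Ctsl being lost without exHindgut replicate 4 or exMidgut replicate 2 or 3, and that of Glb1 without emHindgut replicate 1, emMidgut replicate 4 or exMidgut replicate 3. The 10 took in 5 of 10 proteases, 4 of 7 lipid genes and 1 of 8 sugar enzymes. None of the 6 membrane proteins was called, although Lamp1 (139 against 224 TPM, -0.68 ± 0.08) and Lamp2 (-0.85 ± 0.10) passed the adjusted p. Values did not overlap for 12 of the 32, which was counted for the members only and cannot be read as particular to them. An unadjusted p under 0.05 was found for 26 of the 32 and for 5770 of 13473 of all genes.

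Embryonic and extraembryonic cells, analysed apart after seeing the data, gave like counts. In embryonic libraries 11 of 31 members were called lower in hindgut and 0 higher, with 8.61% and 5.24% of all genes called, and in extraembryonic libraries 10 of 32 were lower and 0 higher, with 6.78% and 4.50% called. Ctsb, Ctsz, Glb1, Gm2a, Lipa, Npc2 and Psap were called in both, Ctsh (-1.97 ± 0.34), Ctsl (-1.26 ± 0.14) and Man2b1 (-1.04 ± 0.24) in the extraembryonic libraries, and Ctsa (-1.03 ± 0.17), Ctsd (-1.27 ± 0.12), Idua (-1.44 ± 0.35) and Tpp1 (-1.11 ± 0.17) in the embryonic ones. Ctsd in the extraembryonic libraries missed only the fold threshold (-0.96, adjusted p = 0.000246). Whether the 2 origins differ was tested by the interaction above, which called none of these genes. By group means, 29 of 32 genes were lower in emHindgut than in emMidgut, at a median of 0.57 times the level, and 31 of 32 were lower in exHindgut than in exMidgut, at a median of 0.59 times. Of the other lists, 9 of 22 hydrolases were called lower in hindgut and 0 higher, led by Ctsf, a further cathepsin (-1.83 ± 0.20). Only 1 of 17 V-ATPase subunits, Atp6ap2, was called. The visceral and yolk sac endoderm markers were also lower in hindgut, as given above, and their part in the result was not tested.

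**Figure D5:**
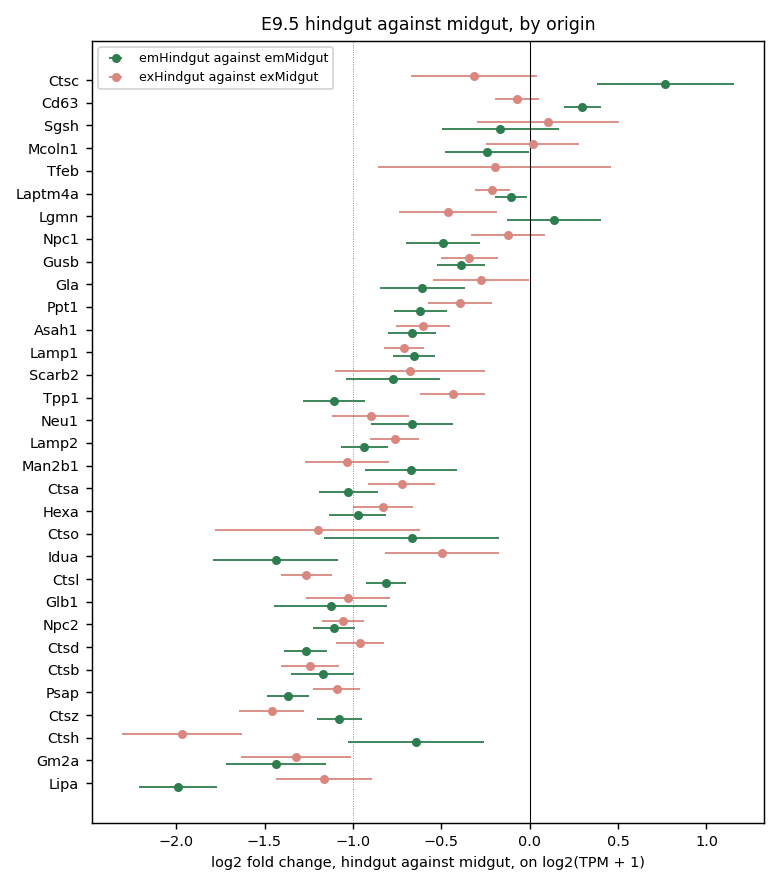
Log2 fold change of hindgut against midgut on the log2(TPM + 1) scale (horizontal axis) for each gene (vertical axis), fitted in embryonic and in extraembryonic libraries; bars are standard errors and the dotted line marks -1. Most points of both colours lie to the left of 0, with medians of -0.67 in embryonic and -0.72 in extraembryonic libraries.

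At E13.5, Trp53 KO exColon and exSI cells were compared with wild-type emColon and emSI cells from lineage-traced embryos in which the extraembryonic lineage alone carries the KO. No member was called, where 0.481% of all genes were called higher and 0.144% lower by limma. An unadjusted p under 0.05 was found for 15 of the 32 members and for 1415 of the 12483 genes tested. Differences were positive for 26 of 32, with a median of 0.48 against 0.11 over all genes. The smallest adjusted p values belonged to Man2b1, an α-mannosidase, at 40.5, 44.2 and 48.0 TPM in emColon, 31.7, 26.6 and 34.2 TPM in emSI, 60.1, 81.7 and 98.3 TPM in exColon and 43.2, 53.1 and 62.7 TPM in exSI (0.79 ± 0.23, adjusted p = 0.176), to Psap (0.69 ± 0.22, adjusted p = 0.219) and to Lamp2 (0.71 ± 0.24, adjusted p = 0.245). With all 44 libraries in 1 fit, which shares the spread of the other groups, 3 members were called higher and 0 lower, with 6.74% and 2.93% of all genes called. Ctsh, higher in exMidgut than in emMidgut at E9.5 and named here for that reason, was low and uneven at E13.5, at 8.05, 0 and 14.2 TPM in emColon, 8.96, 0.788 and 0 TPM in emSI, 2.83, 0.857 and 18 TPM in exColon and 0.361, 13.3 and 0 TPM in exSI (0.02 ± 0.88, adjusted p = 0.997). Of the 8 other lists, the 1 gene called was Amn, higher on the extraembryonic side. The colon libraries alone also gave 0 calls by limma, with 0.233% of all genes called higher and 0.0358% lower. In emSI, the mesenchyme marker Col3a1 lay between 0 and 203 TPM. Others of its list, Lum, Col1a2, Col1a1 and Pdgfra, reached 82.4, 77.4, 56.8 and 47.0 TPM, while Twist1 was at most 0.0203 TPM. In exSI none of these markers exceeded 0.93 TPM. Their part in the result was not tested.

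Between E9.5 and E13.5, where the sort gate and pooling changed with the stage, Npc1 fell in the embryonic gut. It lay between 29.5 and 42.9 TPM in emMidgut and between 18.9 and 28.8 TPM in emHindgut, and at 7.53, 11.4 and 3.29 TPM in emColon and 6.17, 4.2 and 6.37 TPM in emSI (-2.03 ± 0.28, adjusted p = 9.92e-05), with no overlap. Laptm4a, between 364 and 443 TPM at E9.5 and between 146 and 217 TPM at E13.5, fell by 1.09 ± 0.10, and Idua (-1.71 ± 0.56, adjusted p = 0.0324) and Lgmn (-1.49 ± 0.47, adjusted p = 0.026) were also called lower. The call of Idua was lost without any 1 of 7 libraries (emColon replicate 1 or 2, emSI replicate 2 or 3, emMidgut replicate 1, 2 or 4), and that of Lgmn without emColon replicate 1 or 3. Tfeb was called higher, from a mean of 0.424 TPM to 3.87 TPM (1.61 ± 0.43, adjusted p = 0.0118), with 1 emColon library at 0. These 4 lower and 1 higher compare with 15.9% and 2.58% of all genes called, and the median of -0.36 lay near the -0.46 over all genes. Under median-ratio rescaling 1 was called lower (Npc1) and 1 higher (Tfeb), with 8.90% and 4.20% of all genes called, and under quantile normalization 2 lower and 2 higher, with 4.57% and 5.30% called.

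In the extraembryonic gut, where p53 was intact at E9.5 and disrupted at E13.5, 2 of 32 were called lower and 0 higher, with 10.2% and 2.86% of all genes called. They were Npc1 (26.2 to 38.4 TPM at E9.5 and 3.21 to 18.7 TPM at E13.5, -1.70 ± 0.33, adjusted p = 0.00238) and Ctsh (-2.70 ± 0.69, adjusted p = 0.0126). Laptm4a did not reach the fold threshold (-0.99 ± 0.14, adjusted p = 0.000151). The median was -0.09 against -0.28 over all genes. It turned to 0.09 under median-ratio rescaling, which gave 2 lower and 1 higher (7.21% and 3.89% of all genes), and quantile normalization gave 3 lower and 2 higher (4.60% and 5.05% of all genes).

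Each organ was also set against its own region of origin, in fits chosen after seeing the data. For colon against hindgut, emColon against emHindgut had 2 called higher (Ctsb and Neu1) and 2 lower (Laptm4a and Npc1) of 31, with 3.83% and 16.3% of all genes called, and exColon against exHindgut had 5 higher (Ctsb, Ctso, Glb1, Man2b1 and Neu1) and 0 lower, with 3.31% and 6.93% called. For small intestine against midgut, emSI against emMidgut had 10 lower and 1 higher (Tfeb), with 14.2% and 3.02% of all genes called, and exSI against exMidgut had 8 lower and 0 higher, with 11.9% and 3.80% called. Lamp2 (-1.53 ± 0.20 and -1.09 ± 0.17), Tpp1, a tripeptidyl peptidase (-1.66 ± 0.23 and -1.17 ± 0.28), Npc1 (-2.40 ± 0.33 and -2.48 ± 0.42), Npc2 (-1.20 ± 0.16 and -1.02 ± 0.15), Laptm4a (-1.11 ± 0.12 and -1.13 ± 0.16) and Lipa (-1.04 ± 0.25 and -1.03 ± 0.29) were lower in both. The medians were 0.15 and 0.41 for the colon and -0.81 and -0.46 for the small intestine, and the difference between the regions was not tested. The part of the mesenchyme markers seen in emSI was not tested either. By group means, 19 of 32 genes were higher in emColon than in emSI, with a median ratio of 1.14, and 20 of 32 were higher in exColon than in exSI, with a median ratio of 1.10. Colon and small intestine were not compared by a test.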

How the data were processed

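RNA was measured by low-input poly(A) sequencing in 44 libraries of 12 groups. Per the study's methods and the submitters' processing notes, the authors ran cutadapt 4.1 for trimming, STAR 2.7.9a for alignment to mm10 plus the reporter sequences, and StringTie 2.0.6 for quantification of GENCODE VM23 genes. The deposited tables hold TPM and FPKM, both computed by the authors from per-base coverage, and that coverage itself. They hold no read counts, so the count model of the study was not used, and sampling error enters only through the spread between libraries.

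TPM was summed per gene identifier and tested as log2(TPM + 1), a scale that understates changes of low genes, with limma 3.58.1 (R 4.3.3; eBayes with a trend, two-sided, Benjamini-Hochberg adjustment over all genes tested). Protein-coding genes off the Y chromosome with TPM above 1 in at least 4 libraries (3 for the E13.5 comparison of origins) were tested. A gene under 1 TPM throughout a group, such as Tfeb or Ctso in Epi or Ctso in YsEndo, could pass only through the other group. A call needed an adjusted p below 0.05 together with a log2 fold change beyond 1 in either direction, and for the interaction the adjusted p alone. Origin was a covariate of hindgut against midgut and organ of the E13.5 comparison. ± after a log2 fold change is its standard error. At E6.5 and E13.5 each library is 1 embryo and at E9.5 a pool of 4. Python 3.11.15 was used for all other steps. The fits were tested on simulated data with 200 changed genes.

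The members and the lists of other genes were chosen with earlier results of these data known. In each comparison the called members were named, at most 8 a direction by the size of the change, with up to 3 that were not called. Other members were named, after their values were seen, to cover each role. From the other lists, at most 4 called genes were named. Each count of calls was recomputed with FPKM in place of TPM, a pseudocount of 0.1, every gene above 0 tested, median-ratio and quantile scaling, no trend, all gene types, all 44 libraries in 1 fit, a replicate block and leaving out each library. Same-numbered exEndo1 and exEndo2 libraries deviated together from their group means (correlations 0.146 to 0.38, 4 of 4 pairs over 0.1), and the replicate block left their count of calls at 2. Promoters came from RefSeq (GRCm38.p6).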

Additional observations from a re-analysis of the deposited data

Results flagged for a closer look

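In groups of 4 libraries, the lowest or highest value was compared with the other 3, and 19 of 264 levels of genes or of the summed set stood apart by Dixon's criterion at the 95% level (the gap to the nearest library against the whole range). Chance alone gives such a value in about 1 of 20 groups.

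In Epi, replicate 4 stood apart in 4 genes. It was the lowest for Ctsd (42.52 TPM against 78.18 to 82.94 TPM) and Neu1 (11.19 TPM against 13.9 to 14.31 TPM), and the highest for Laptm4a (275.1 TPM against 208.4 to 214.4 TPM) and Ctsc (20.88 TPM against 16.17 to 16.59 TPM). Replicate 1 was the highest for Ctso (0.9616 TPM against 0.5968 to 0.6393 TPM), and replicate 2 had the highest sum over the set (1171 TPM against 1100.5 to 1104 TPM).

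In exEndo1, replicate 1 was low in Ctsz (356.7 TPM against 823.9 to 860.3 TPM). In exEndo2, replicate 2 had the lowest sum over the set (9115 TPM against 11800.0 to 11953 TPM). In YsEndo, replicate 1 was high in Lamp2 (326.5 TPM against 243.7 to 244.6 TPM) and low in Ctsb (576.0 TPM against 639.9 to 647.2 TPM), and replicate 2 was the only one with Ctso above 0 (0.171 TPM).

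In emMidgut, replicate 3 was high in Mcoln1 (73.12 TPM against 35.82 to 41.72 TPM) and replicate 2 in Laptm4a (442.8 TPM against 402.3 to 409.0 TPM). In emHindgut, replicate 3 was high in Ctsl (315.4 TPM against 252.7 to 259.1 TPM) and in the sum (2774 TPM against 2543 to 2549.6 TPM), replicate 4 in Asah1 (52.24 TPM against 45.83 to 46.83 TPM), and replicate 2 was low in Ctsh (2.461 TPM against 5.644 to 6.245 TPM). In exMidgut, replicate 4 was low in Ppt1 (71.05 TPM against 100.4 to 106.0 TPM). In exHindgut, replicate 2 was high in Tpp1 (56.79 TPM against 49.68 to 50.68 TPM).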

How the results depend on the processing

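Of 4072 values of named members under the alternatives, 3895 kept their direction and side of the threshold, 119 no longer passed it, 58 newly passed it and 0 reversed. The cause of a change was not tested. For exEndo1 against exEndo2 (2 members called), the count was 1 without a filter on low values and 1 with all 44 libraries in one fit, and 1 to 2 when libraries were left out in turn. For exGut against emGut (1 called, Ctsh), it was 0 without the filter, 0 with a replicate block, 0 in the hindgut libraries only (an alternative added after seeing the data), and 0 to 1 when libraries were left out. For YsEndo against exEndo2 (6 called) it was 15 under median-ratio rescaling. For the E13.5 comparison of origins (0 called) it was 3 with all 44 libraries in one fit. For E13.5 against E9.5 in embryonic gut (5 called) it was 3 without the filter, 2 with FPKM, 2 under median-ratio rescaling and, added after seeing the data, 11 for emSI against emMidgut. In extraembryonic gut (2 called) it was 5 under quantile normalization, 4 with all 44 libraries and 2 to 4 when libraries were left out, with 4 without exSI replicate 2, exHindgut replicate 1 or exHindgut replicate 4. Added after seeing the data, it was 5 for exColon against exHindgut and 8 for exSI against exMidgut. Apart from exEndo1 and exEndo2, at most 1 same-numbered pair in any 2 groups had a correlation over 0.1. Smaller correlations were all positive in some groups, such as emSI with exSI (0.0509 to 0.0663). In others, such as emMidgut with emHindgut (-0.00447 to 0.0359), they had both signs. They do not show that these libraries came from separate embryos. The replicate block changed the call of Ctsh in exGut against emGut (adjusted p = 0.0598 with limma) and of no other named member in the comparisons where it was fitted. With no counts, low levels such as those of Ctso and Tfeb rest on an unknown number of reads.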
